A study of Mus musculus with 9 samples.

Results

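Tbx20, Tbx15, Lhx8, Cspg4, Plcb2 and Pxdn are 6 of the 24411 genes in the expression table of long-term macrophage lines. They were picked by name as genes outside the Hox clusters that were present in lines from yolk sac (YS lines) and near 0 in lines from fetal liver (FL lines), so their levels in these groups are given as a description and carry no test. The study expanded macrophages from C57BL/6 mice with macrophage colony-stimulating factor (M-CSF), the growth factor that macrophages need, and profiled 3 YS lines, 3 FL lines and 3 lines from adult bone marrow (BM lines) by bulk RNA-seq of poly(A) RNA. The YS and FL donors were embryos. The labels name no transgene and no further treatment in any group. Cells of 2 or more mice were pooled, and a line is a bulk culture from its own dish or well. The p-values below therefore measure the spread among such cultures.

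Macrophages of the yolk sac are the first of the embryo, and those of the fetal liver follow. In the adult, bone marrow monocytes supply macrophages, while macrophages of yolk sac or fetal liver origin also persist in many tissues. The 6 genes are better known from other settings. Tbx20 encodes a T-box transcription factor of the developing heart, Tbx15 a T-box factor of the skeleton and muscle, and Lhx8 a LIM-homeodomain factor of ventral forebrain neurons, the palate and oocytes. Cspg4 encodes NG2, a membrane chondroitin sulfate proteoglycan used to mark pericytes and oligodendrocyte progenitors. Plcb2 encodes a phospholipase C that is activated by G proteins and cleaves a membrane lipid into second messengers. Pxdn encodes peroxidasin, a heme peroxidase that crosslinks collagen IV in basement membranes.

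The label of ectopic developmental genes held only in part. Tbx20, Lhx8 and Cspg4 reached 1 TPM (the share of transcripts, corrected for transcript length and scaled to the same total in each library) in all 3 YS lines, while Tbx15 and Plcb2 did so in 2 YS lines and Pxdn in 1. Plcb2 is also a known gene of blood cells, so the name ectopic does not describe it. All 12 macrophage markers examined were above 0 in every line, with sums of 5179 to 9969 TPM in YS, 12484 to 29447 in FL and 12028 to 13694 in BM lines. Lyz2 was the largest term of the sum in every line, at 1163 to 3531 TPM in YS, 5806 to 21976 in FL and 5986 to 7841 in BM lines. The order of the groups was not the same for every marker. Markers of fibroblasts summed to at most 2.14 TPM, those of mural cells (Acta2, Tagln, Mcam) to between 3.37 and 14.7 TPM, and those of heart muscle to at most 4.06 TPM. The 10 endothelial markers, with Kdr the highest in YS line 3 and Tie1 in YS line 1, summed to 24.3 to 92.9 TPM in YS, 19.6 to 51.9 in FL and 0.25 to 3.04 in BM lines. Markers of yolk sac endoderm and epithelium ranged from 1.31 to 20.7 TPM. BM line 2 stood apart: its 8 erythroid markers summed to 287 TPM with none at 0, against 0.5 to 15.5 TPM with 5 or 6 at 0 in the other lines, and 1 of 10 fibroblast and 1 of 10 mural cell markers was at 0 against at least 4 elsewhere. The erythroid sum of BM line 2 held Hba-a1 at 215 TPM, the embryonic globins Hbb-y at 43 and Hba-x at 14.8 TPM, and Hbb-bt at 12.55 TPM. Hbb-y was at most 0.27 TPM in the other lines. The source of these transcripts was not tested. Results that rest on BM line 2 are given with and without it. In bulk RNA, more cells that express a gene and more RNA per cell cannot be told apart.

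Promoter sequence was available from RefSeq (GRCm38.p6) for 5 of the 6 genes, all but Tbx15. The 250 bases before the start site are shown for Tbx20, with the most CG dinucleotides of the 5, and for Lhx8 and Plcb2, with the fewest, so that both ends of the range can be seen. CG dinucleotides are in capitals, and all 3 windows are on the minus strand, 5′ to 3′ (Tbx20 chr9:24774304-24774553, Lhx8 chr3:154330561-154330810, Plcb2 chr2:118728439-118728688).
Tbx20: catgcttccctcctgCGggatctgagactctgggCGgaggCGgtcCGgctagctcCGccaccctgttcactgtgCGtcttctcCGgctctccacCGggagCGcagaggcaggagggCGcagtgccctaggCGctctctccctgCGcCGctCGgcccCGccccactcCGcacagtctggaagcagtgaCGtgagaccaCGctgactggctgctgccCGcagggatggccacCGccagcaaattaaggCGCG
Lhx8: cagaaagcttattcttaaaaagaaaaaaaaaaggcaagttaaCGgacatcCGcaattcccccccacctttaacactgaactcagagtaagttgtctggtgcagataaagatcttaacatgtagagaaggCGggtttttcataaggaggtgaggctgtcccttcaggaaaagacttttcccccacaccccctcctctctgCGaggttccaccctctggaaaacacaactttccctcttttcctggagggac
Plcb2: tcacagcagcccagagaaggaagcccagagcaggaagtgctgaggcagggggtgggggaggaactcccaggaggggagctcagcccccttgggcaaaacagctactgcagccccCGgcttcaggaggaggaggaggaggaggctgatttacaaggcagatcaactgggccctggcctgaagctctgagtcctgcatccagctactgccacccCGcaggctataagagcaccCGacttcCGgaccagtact
The Tbx20 window held 22 CG dinucleotides and the Lhx8 and Plcb2 windows 4 each. Cspg4 had 12 and Pxdn 14, against a median of 6 over 32851 promoter windows of this length. Searched on both strands, the T-box half-site GGTGTG was found among the 5 windows in Lhx8, and in 16.3% of all windows. The ETS site AGGAAGT was found in Plcb2, and in 7.69% of all windows. TAATTA (LIM homeodomain) and CACGTG (E-box), present in 4.84% and 6.02% of all windows, were in none of the 5. Such matches describe the letters only, and no window was tied to a difference between lines.

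Among the transcription factors, Tbx20 was the most even of the 6 genes across YS lines. Its level was 20.2, 16.2 and 34.8 TPM in YS lines 1, 2 and 3 (23.8 ± 9.78, SD, n = 3), which placed it above 71.3%, 69.4% and 79.5% of all listed genes. It was 0.05, 0 and 0 TPM in FL lines 1 to 3 and 0, 2.51 and 0 TPM in BM lines 1 to 3. Every YS line lay above every other line, and BM line 2 was the only one of the other 6 above 0.05 TPM. On the log2(TPM + 1) scale, which understates changes of low genes, Tbx20 was higher in YS than in BM lines by 3.95 (SE 0.49) and than in FL lines by 4.54 (SE 0.49). Without BM line 2, the YS minus BM difference was 4.56.

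Tbx15, the other T-box gene, was 20.2, 7.97 and 0.34 TPM in YS lines 1, 2 and 3. It reached at most 0.04 TPM in FL lines, and was 0.04, 1.60 and 0 TPM in BM lines. YS line 3 was thus closer to FL lines than to the other YS lines and lay below BM line 2. The difference YS minus BM was 2.19 (SE 0.88) and YS minus FL 2.63 (SE 0.88) in log2(TPM + 1). Without YS line 1, the YS minus BM difference was 1.32, without YS line 3 it was 3.31, and without BM line 2 it was 2.64.

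Lhx8 was the lowest of the factors at 8.42, 5.11 and 3.44 TPM in the YS lines (5.66 ± 2.53, SD, n = 3). Its FL values were 0.08, 0.14 and 0 TPM and its BM values 0, 0.64 and 0 TPM, so the YS lines did not overlap with either group. The log2 difference was 2.43 (SE 0.33) from BM and 2.57 (SE 0.33) from FL lines. Without BM line 2, the difference from BM was 2.67.

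**Figure D1:**
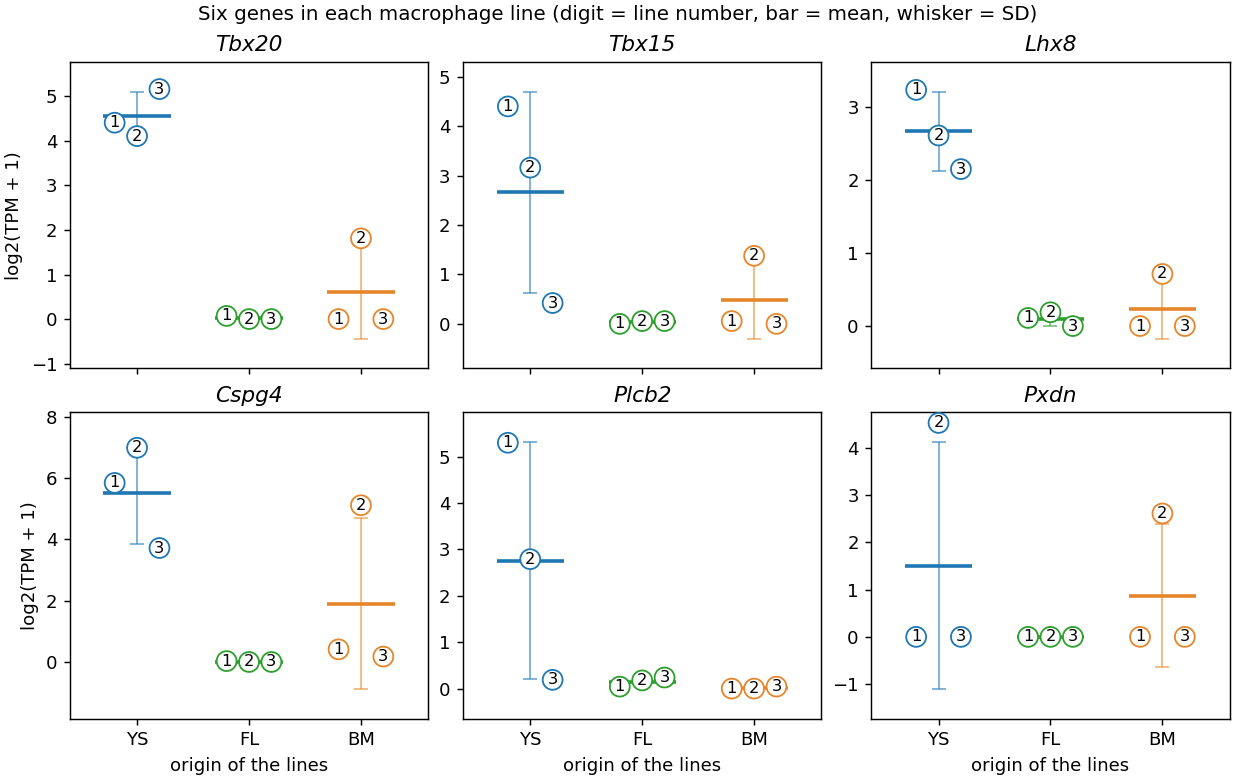
Level of each of the 6 genes in each line, as log2(TPM + 1) on the vertical axis, by origin of the line on the horizontal axis. Circled digits are line numbers, bars are means and whiskers SD (n = 3). FL lines sit near 0 in every panel, BM line 2 sits above BM lines 1 and 3 in all panels but Plcb2, and Pxdn is above 0 only in YS line 2 and BM line 2.

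Cspg4 had the highest level of the 6 genes. It was 56.3, 125.9 and 12.2 TPM in YS lines 1, 2 and 3, at most 0.02 TPM in FL lines, and 0.33, 33.6 and 0.13 TPM in BM lines. BM line 2 lay above YS line 3, so YS and BM lines overlapped, while YS and FL lines did not. The log2 difference was 3.61 (SE 1.28) from BM lines and 5.51 (SE 1.28) from FL lines. Without BM line 2, the difference from BM was 5.22.

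Plcb2 was 38.4 TPM in YS line 1, 5.92 in YS line 2 and 0.14 in YS line 3. Its FL values were 0.03, 0.13 and 0.18 TPM and its BM values 0, 0 and 0.03 TPM. YS line 1 thus held 86.4% of the summed YS level, and YS line 3 was below FL line 3. Plcb2 alone of the 6 genes was at 0 in BM line 2. It did not pass the filter on low values (1 TPM in 3 of 9 lines), so its mean log2 difference of 2.75 from BM and 2.61 from FL lines has no SE. Leaving out YS line 1 gave 1.48 and 1.34.

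Pxdn was listed at 0 in 7 of 9 lines. The exceptions were YS line 2 at 22.0 TPM and BM line 2 at 5.10 TPM, so the word YS gene describes 1 line. It did not pass the filter either. Its mean log2 difference was 0.64 from BM and 1.51 from FL lines. Without YS line 2, YS minus BM was -0.87, with BM line 2 the only line above 0, and YS minus FL was 0. Without BM line 2, YS minus BM was 1.51.

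In the YS against BM comparison, limma called 4 of the 4 genes that passed the filter higher in YS lines, where 7.57% of 11753 tested genes were called in that direction. In YS against FL, 3 of the 4 were called (all but Tbx15), against 1.95% of tested genes. The choice of the genes used the YS and FL values, which fixes the second contrast and the YS side of the first, so nothing is read from either count. Tbx15 entered the test only through the 1.60 TPM of BM line 2. Without BM line 2, the 3 genes left in the test were called in both comparisons. In YS against BM, 1 of 2 was called without YS line 1 or without YS line 2, and 2 of 4 without BM line 1 or without BM line 3. The share of all genes called in these fits is not given, so nothing is read from these counts. FL minus BM, which the choice fixed only on the FL side, ranged from -1.89 (Cspg4) to 0.14 (Plcb2) over the 6 genes, and 0 of 4 was called, where 10.3% of tested genes were called in either direction. The value for Cspg4 rests on BM line 2, at 33.6 TPM against 0.33 and 0.13 TPM in BM lines 1 and 3. Without BM line 2, Cspg4 in YS lines was 5.22 above BM and 5.51 above FL lines. For Pxdn both differences were then 1.51. The genes passed the filter mainly through YS lines, so nothing is read from this count.

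The genes differed in which YS line held them. YS line 1 was highest for Tbx15, Lhx8 and Plcb2, YS line 2 for Cspg4 and Pxdn, and YS line 3 for Tbx20. As a measure of likeness, the share of its summed TPM that a gene has in each line was compared, and the smaller of 2 genes' shares was added over the 9 lines. The overlap among the 6 genes ran from 13.2% for Plcb2 and Pxdn to 80.6% for Tbx15 and Plcb2, with 78.5% for Tbx15 and Lhx8 and 53.9% for the T-box pair. These shares are descriptions over 9 lines.

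Among 10910 genes that reached 5 TPM in some line, the pattern closest to Tbx20 was that of Pdgfrl, with an overlap of 94.1%. Pdgfrl was 10.98, 10.6 and 25.5 TPM in YS lines 1 to 3, with 1.87 TPM in BM line 2. Haao, an enzyme of tryptophan breakdown, and Pear1 followed at 89.8% and 87.4%. Lhx8 was closest to Antxr1, an anthrax toxin receptor that binds collagen (95.2%; 8.16, 5.99 and 3.45 TPM in YS lines, 0.53 in BM line 2), then Trib2 (93.3%) and Igf2bp1, an RNA-binding protein (91.3%). Tbx15 was closest to Gm11538 (94.7%), Mcemp1 and Serpina3g (93.3% each). Serpina3g belongs to a cluster of near-identical genes, so its count is uncertain. Cspg4 was closest to Pecam1, an adhesion molecule of endothelium and leukocytes (85.8%; 4.91, 8.17 and 0.29 TPM in YS lines), then Evc (84.4%) and I730030J21Rik (84.0%). Plcb2 was closest to Pik3c2b, a lipid kinase (98.9%), Ppfia4 (98.1%) and Il1rl2, an interleukin receptor (97.8%). Pxdn was closest to Cdh6, a cadherin that was 14.9 TPM in YS line 2 and 2.50 TPM in BM line 2 (95.3%), then Fam160a1 (87.1%) and Arhgap44 (87.0%).

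**Figure D2:**
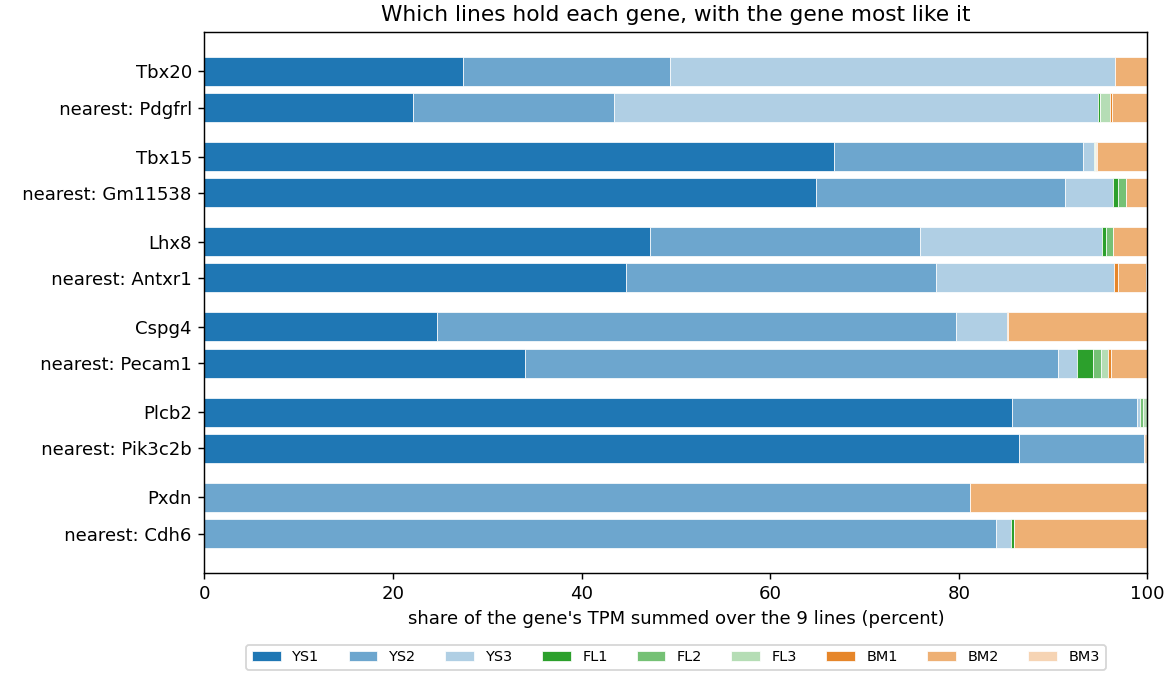
Share of the summed TPM of each gene in each of the 9 lines (percent, horizontal axis), for the 6 genes and for the single gene most like each. Blue segments are YS, green FL and orange BM lines. The Plcb2 and Pik3c2b bars lie almost wholly in YS lines 1 and 2, and the Pxdn and Cdh6 bars in YS line 2 and BM line 2.

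BM line 2 held 5 of the 6 genes at a fraction of their level in YS line 2. The BM line 2 level was 15.5% of the YS line 2 level for Tbx20, 20.1% for Tbx15, 12.5% for Lhx8, 26.7% for Cspg4, 23.2% for Pxdn and 0% for Plcb2. BM lines 1 and 3 did not exceed 0.33 TPM for any of them. For comparison, 43 further genes had 20 TPM or more in YS line 2 but stayed under 0.5 TPM in both BM line 1 and BM line 3, and their BM line 2 level had a median of 14.1% of YS line 2 (quartiles 9.94% and 17.5%, range 0% to 27.7%). Of 23 other genes with at most 0.2 TPM in FL lines, at least 5 TPM in YS line 2 and less than 0.5 TPM in BM lines 1 and 3, 12 were in BM line 2 at 10% or more of YS line 2, 4 at 2% to 10% and 7 under 2%. The 12 included Igf2bp1 (20.1%) and Cdh6 (16.8%). Plcb2 fell with the 7, which were Axl (1.58%), Treml2 (0.56%), Adgrg3, Mrgpra2a and 3 microRNA entries (0%). Axl is a receptor of phagocytes that binds dying cells, and Treml2 and Adgrg3 are receptors of leukocytes. These genes were named after their values were seen. The part of BM line 2 in the members' BM levels was not tested.

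**Figure D3:**
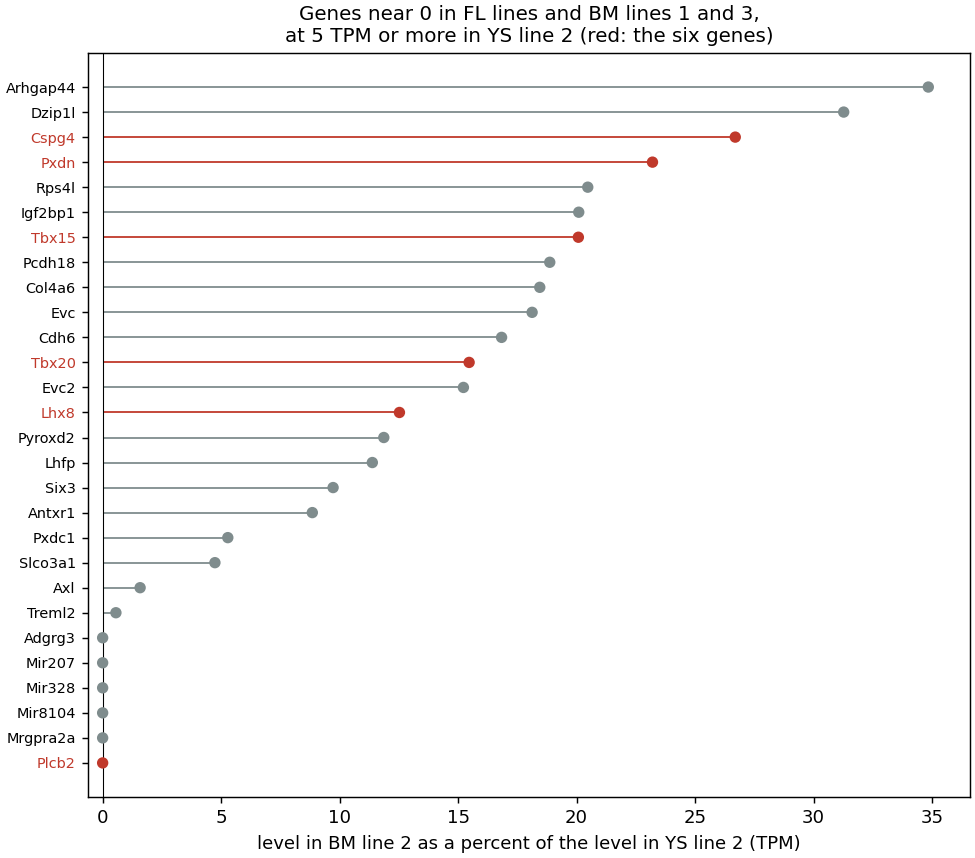
Level in BM line 2 as a percent of the level in YS line 2 (horizontal axis, from TPM) for genes with at most 0.2 TPM in FL lines, at least 5 TPM in YS line 2 and less than 0.5 TPM in BM lines 1 and 3. The 6 genes are red and 22 of the 23 others, all but 1 that is not shown, are grey. The red points other than Plcb2 lie between 12.5% and 26.7%, and Plcb2 lies at 0%.

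Other genes had the same YS and FL pattern. Beyond the 6, 87 of the 24411 listed genes reached 5 TPM in a YS line and stayed at or under 0.2 TPM in all FL lines. YS line 1 was highest in 51 of these, YS line 2 in 15 and YS line 3 in 21, and 24 reached 1 TPM in all 3 YS lines, as Tbx20, Lhx8 and Cspg4 did. BM line 2 was the highest BM line in 43 of the 87 (49.4%) and in 5 of the 6 genes. The reverse pattern, 5 TPM in an FL line and at most 0.2 TPM in all YS lines, was met by 50 genes, of which 10 (20%) had their highest BM level in BM line 2. The share of all listed genes with BM line 2 highest was not counted, so nothing is read from these shares.

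The related genes of each member, 181 in 10 lists, were mostly silent, and 59 passed the filter. In YS against BM, 15 of the 59 were called (25.4%, 9 higher and 6 lower in YS), against 12.8% of all tested genes. In FL against BM, 10 were called (16.9%, 4 higher and 6 lower in FL), against 10.3%. In YS against FL, 7 were called (11.9%, 6 higher and 1 lower in YS), against 3.79%. The median log2 difference over the 59 was 0.25, 0.05 and 0.19, beside 0.11, 0.09 and 0.02 over all tested genes. The YS against BM count was 11 without BM line 2 and 9 without BM line 1. The YS against FL count was 5 without BM line 2 and 4 without FL line 3. For these left-out fits the share of all genes called is not given, so nothing is read from the changes in count.

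In the T-box family, 13 of the 15 other listed genes stayed below 1 TPM in every line. Mga, a T-box factor of the MAX network, ranged from 21.0 to 31.1 TPM in YS and from 13.2 to 14.0 TPM in BM lines, and Tbx6 reached at most 1.35 TPM. Neither was called in a comparison. Of 17 LIM-homeodomain and LIM-only genes, 11 stayed below 1 TPM. Isl2, a LIM-homeodomain factor of motor neurons, was 7.06, 6.13 and 5.23 TPM in YS, 5.27, 6.38 and 3.75 in FL and 0.90, 1.92 and 0.98 in BM lines. It was higher in YS than in BM lines by 1.68 (SE 0.25, limma adjusted p = 0.00323) and in FL than in BM lines by 1.44 (adjusted p = 0.00511). Lmo2, a LIM-only factor of blood formation, was 82.9 to 207 TPM in all lines, and Lmo4, Ldb1 and Lhx2 were not called either. Lhx1 reached 1.20 TPM in YS line 1 only.

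Of 17 heart regulators, 12 stayed below 1 TPM, among them Nkx2-5, Hand1 and Hand2. Gata4 was 2.14, 2.40 and 0.05 TPM in YS lines, at most 0.04 in FL and at most 0.82 in BM lines, and was not tested under the filter. Mef2c, a factor of muscle and of myeloid cells, was 61.4 to 120.4 TPM in YS and 27.7 to 32.9 TPM in BM lines, a log2 difference of 1.28 (SE 0.27, limma adjusted p = 0.0113). Without YS line 1 the difference was 0.97, under the 2-fold limit. 

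Regulators of skeletal and craniofacial mesenchyme and of the ventral forebrain were listed for the settings in which Tbx15 and Lhx8 are known. Msx1, a homeobox factor, was 1.06 to 1.72 TPM in YS and 0 in FL lines (1.24, SE 0.29, limma adjusted p = 0.0515), a call that was lost without FL line 2 (adjusted p = 0.135) or FL line 3 (0.141). Msx1 reached 1 TPM only in the YS lines, which alone took it past the filter, so nothing is read from this call. Dlx1 was 3.09 to 10.8 TPM in YS and 0.59 to 2.49 in FL lines (1.60, adjusted p = 0.0754), lost when any FL or BM line or YS line 1 was left out (adjusted p = 0.104 to 0.204). Twist2 shared the steep order of Plcb2, at 23.2, 4.40 and 0.28 TPM in YS lines, and was not tested. Gbx2, from the ventral forebrain list, was higher in both embryonic groups than in BM lines. The difference was 1.47 in YS (limma adjusted p = 0.00663) and 2.37 in FL lines (adjusted p = 0.00114). Gbx2 reached 1 TPM only in YS and FL lines, which took it past the filter, so nothing is read from these p-values. It did not share the low FL level of Lhx8.

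**Figure D4:**
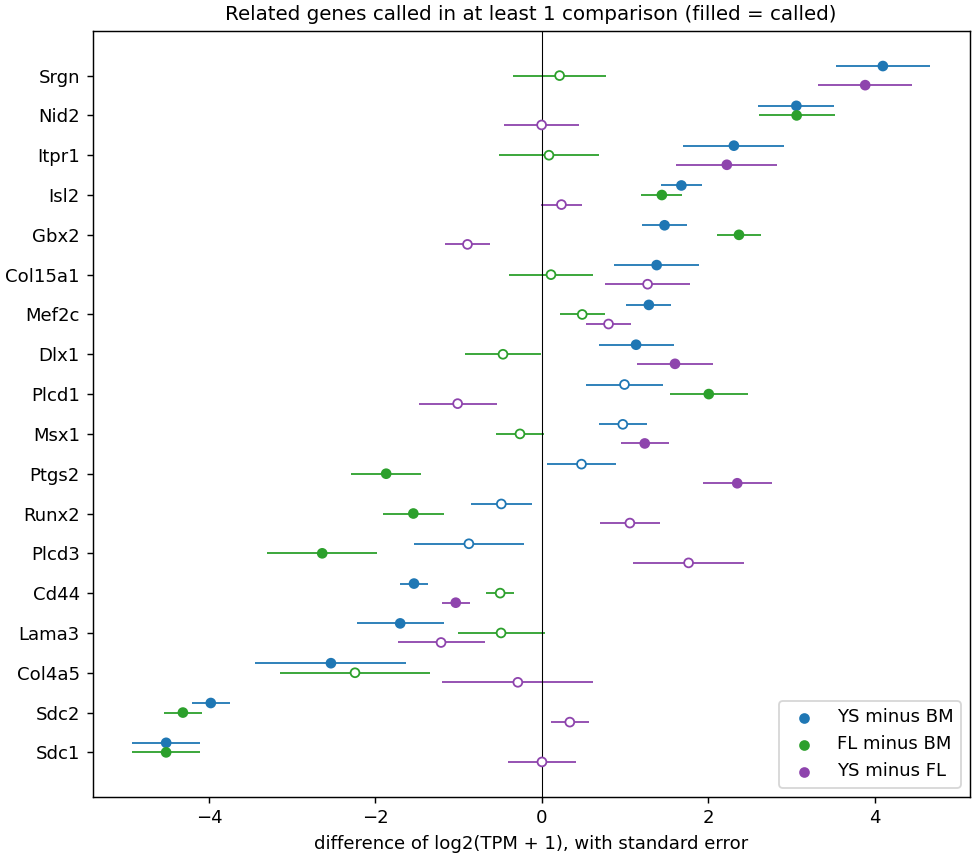
Difference of log2(TPM + 1) with its standard error (horizontal axis) for 18 related genes called in at least 1 comparison, in blue for YS minus BM, green for FL minus BM and purple for YS minus FL. Filled points are called. Srgn is called in both comparisons of YS lines, and Sdc1 and Sdc2 lie below 0 against BM for both embryonic groups. Several genes passed the filter only through lines where they are high. Among them are Srgn and Msx1 (YS lines), Gbx2 (YS and FL lines), Ptgs2 (YS and BM lines) and Sdc2 (BM lines).

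Among proteoglycans, the other kin of Cspg4, Srgn had the largest rise in YS lines. Srgn encodes serglycin, the granule proteoglycan of blood cells, and was 54.7, 11.3 and 8.96 TPM in YS, 0.15 to 0.37 in FL and 0 to 0.17 in BM lines. The log2 difference was 4.10 from BM (SE 0.56, limma adjusted p = 0.00275) and 3.88 from FL lines (adjusted p = 0.0157), and BM line 2 held 1.42% of the YS line 2 level. Srgn reached 1 TPM only in the YS lines. It passed the filter through the group where it is high, so nothing is read from these p-values. The syndecans Sdc1 and Sdc2, heparan sulfate carriers of the cell surface, were lower in YS than in BM lines, with log2 differences of -4.51 and -3.98 (adjusted p = 0.000575 and 4.53e-05). Sdc2 reached 1 TPM only in the BM lines, which alone took it past the filter, so nothing is read from its p-value. Cd44, the hyaluronan receptor, was 102.9 to 125.0 TPM in YS, 199.9 to 297.8 in FL and 288.4 to 350.7 in BM lines, and was the 1 related gene called lower in YS than in FL lines (-1.04, SE 0.17, adjusted p = 0.0225). That difference was under 2-fold without YS line 1 (-0.98) or FL line 3 (-0.85). Bcan, brevican of the brain matrix, was 69.7 TPM in YS line 3 and below 1 TPM in every other line and was not tested. Of 15 mural cell and glial progenitor markers, 12 stayed below 1 TPM and none of the 3 tested was called. Mcam, also found on pericytes, was 9.39, 2.40 and 0.61 TPM in YS lines and Tagln 2.81 to 7.31 TPM in all lines.

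Of 26 listed phospholipase C and Gq signaling genes, 7 stayed below 1 TPM in every line and 19 were tested, and 1, 2 and 1 were called in YS against BM, FL against BM and YS against FL. Plcg2, the phospholipase C of immune receptors, was 102.3 to 186.4 TPM, and Plcb3, from the same subfamily as Plcb2, 15.4 to 35.8 TPM. Neither was called. Itpr1, a receptor that releases calcium in response to a phospholipase C product, was 25.5, 11.5 and 37.5 TPM in YS and 3.22 to 3.99 TPM in BM lines, higher by 2.31 (SE 0.61, limma adjusted p = 0.0245). It was called against FL lines too (2.22, adjusted p = 0.0699), with FL line 1 at 12.5 TPM above YS line 2. This call was lost in 7 of the 9 fits that leave out a line (adjusted p = 0.111 to 0.193). The Gq family gene Gnaq ranged from 30.5 to 61.4 TPM.

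Pxdn acts in the basement membrane. Of its 27 listed genes, 11 were tested and none was called between YS and FL lines. Collagen IV, the substrate of peroxidasin, was mixed. Col4a1 was 0, 6.51 and 7.5 TPM and Col4a2 0.81, 16.1 and 15.0 TPM in YS lines 1, 2 and 3, and both were above 1 TPM in FL line 1 and BM line 2 as well. Col4a5 was lower in YS than in BM lines (-2.53, SE 0.91, limma adjusted p = 0.0678), a call lost without any 1 of the BM lines (adjusted p = 0.133 to 0.168). Nid2, which links laminin to collagen IV, was 57.9, 68.8 and 59.6 TPM in YS and 3.63 to 16.0 TPM in BM lines (3.06, SE 0.46, adjusted p = 0.00336), with the same size of difference in FL lines (3.06). Of 8 other heme peroxidases, Ptgs1 and Ptgs2, the cyclooxygenases, passed the filter. Ptgs2 was 2.68 to 11.1 TPM in YS lines, against at most 0.29 TPM in FL lines (2.35, SE 0.42, adjusted p = 0.0264). BM lines, at 2.86 to 3.52 TPM, lay between the YS values, and Ptgs2 was lower in FL than in BM lines (-1.87, adjusted p = 0.0156) with no call in YS against BM (0.48, adjusted p = 0.418). With only the 6 lines compared, the YS against FL call was lost (adjusted p = 0.122). Ptgs2 reached 1 TPM only in YS and BM lines, so nothing is read from its calls that involve FL lines. The myeloid enzymes Mpo and Epx stayed below 1 TPM in every line.

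The genes next to the 6 along the chromosome (RefSeq gene order, GRCm38.p6) were examined for the same differences, and 3 of 11 tested were called in YS against BM, 3 in FL against BM and 1 in YS against FL lines, where 12.8%, 10.3% and 3.79% of all tested genes were called. Of 24 neighbours, the nearest 2 on each side, 12 stayed below 1 TPM in every line and 6 were at 0 throughout. Eepd1, a nuclease gene 2 places from Tbx20 on chromosome 9, was 45.7, 22.7 and 23.3 TPM in YS, 9.17, 1.93 and 4.39 in FL and 11.2, 12.4 and 16.2 in BM lines. YS lines lay above all others, by 2.46 from FL lines (SE 0.44, limma adjusted p = 0.0271) in log2(TPM + 1). The smaller difference from BM lines (1.09, adjusted p = 0.0978) was lost without any 1 of the YS lines or BM lines or FL line 3. FL lines were lower than BM lines (-1.38, adjusted p = 0.0599), a call lost without FL line 2 or 3 or any 1 of the BM lines (adjusted p = 0.122 to 0.184). Herpud2, which lies between Tbx20 and Eepd1, was 41.1 to 66.0 TPM in all lines and was not called. Next to Lhx8 on chromosome 3, AI606473 was 24.5, 16.7 and 9.30 TPM in YS, 2.43, 41.1 and 11.4 in FL and 1.63 to 2.09 in BM lines. It was higher in YS than in BM lines (2.56, adjusted p = 0.0388; 0.106 without BM line 1). FL minus BM was 2.10 (adjusted p = 0.0908), a call lost without YS line 2, FL line 2 or 3, or any 1 of the BM lines (adjusted p = 0.119 to 0.204). Next to Cspg4 on chromosome 9, Odf3l1 went the other way. It was 4.29, 6.44 and 0.86 TPM in YS, 0.38 to 0.63 in FL and 8.53 to 17.8 TPM in BM lines (YS minus BM -1.77, adjusted p = 0.028, and 0.105 without BM line 1; FL minus BM -3.22, adjusted p = 0.00302). Odf3l1 reached 1 TPM only in YS and BM lines, so nothing is read from its FL minus BM p-value. Beside Pxdn on chromosome 12 and Plcb2 on chromosome 2, no neighbour but Inafm2 (4.16 to 7.63 TPM) reached 1 TPM in any line.

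**Figure D5:**
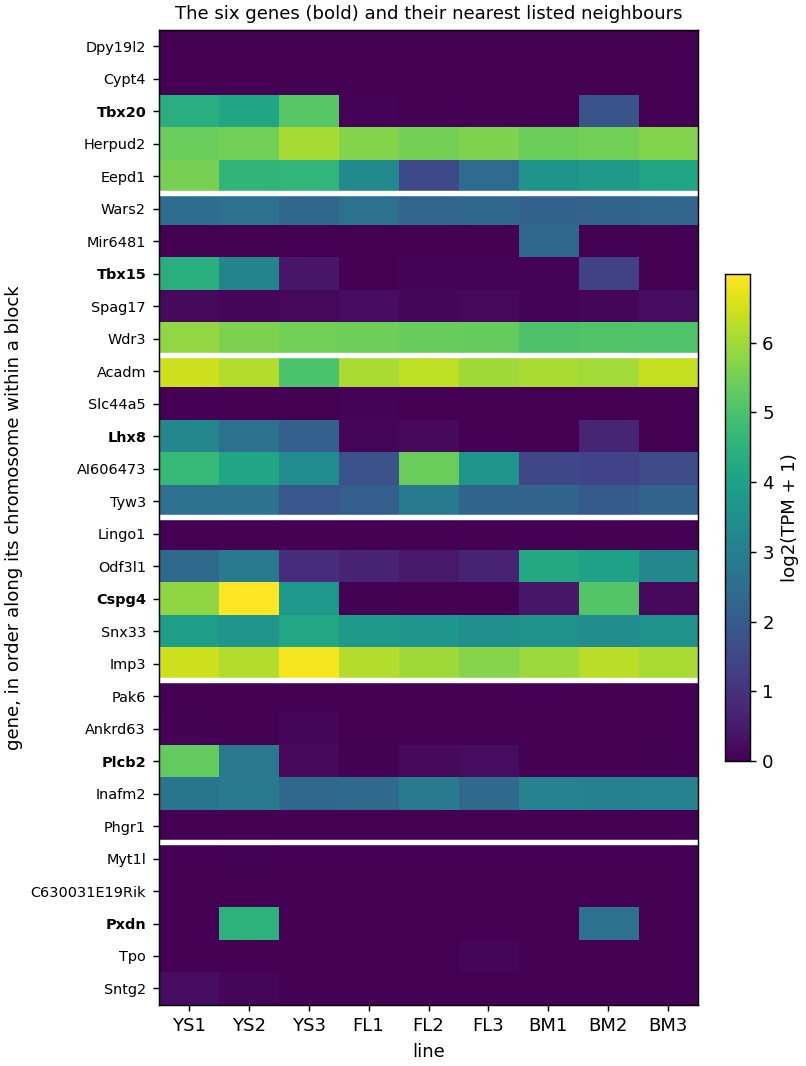
Level of each of the 6 genes (bold) and of the nearest 2 listed genes on each side, as log2(TPM + 1) by colour, in blocks by gene, with the 9 lines across. Rows within a block follow the chromosome. The dark rows are genes near 0 TPM, and Eepd1, in the Tbx20 block, is brighter in YS lines than elsewhere.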

How the data were processed

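RNA from 9 macrophage lines was sequenced by the study from poly(A)-selected, strand-specific libraries. The deposited table gives TPM, which the authors scaled to the same total in each library and wrote to 2 decimals, for 24411 gene symbols. The submitters' processing notes name Trim Galore 0.6.6, STAR 2.7.9a and RSEM 1.3.3, and the genome build and annotation are not given in the sources used here. TPM keeps no read depth, so no counting error or limit of detection is given, and the spread among 3 lines is the measure of precision. The 9 lines were assigned to groups from their labels.

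TPM values were taken to log2(TPM + 1). The filter kept the 11753 genes that reached 1 TPM in 3 or more of the 9 lines, and limma 3.58.1 in R 4.3.3 was fitted over all 9 lines (empirical Bayes with a trend, Benjamini-Hochberg adjustment, two-sided). Genes were called at an adjusted p under 0.1 and over 2-fold. Adjusted p-values of single genes come from this fit. The fit was tested on simulated data. Members and lists were chosen with earlier results of these data known. Related genes named were those called, without overlap of the groups, and at most 3 a list and comparison by size, plus family members at 1 TPM or more. Genes named outside this were chosen after their values were seen. Alternatives changed the pseudocount, filter, scaling, trend, lines fitted and block. Some genes are not reported here. Line numbers did not pair the samples.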

Additional observations from a re-analysis of the deposited data

How the results depend on the processing

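Tbx20, Tbx15, Lhx8, Cspg4 and Plcb2 stayed higher in YS than in BM and FL lines when pseudocount, filter, scaling or lines left out changed. Their differences were not computed for the fits without trend, with the block or with only the 6 lines compared. The genes were chosen on YS and FL values, so nothing is read from the kept direction. Sizes moved with the pseudocount: Tbx20 YS minus BM was 6.25 at 0.1 and 2.50 at 4, against 3.95 in the main fit. Pxdn depended on YS line 2: leaving out each line in turn gave -0.87 to 1.51 for YS minus BM and 0 to 2.26 for YS minus FL. Of 39 calls of related genes and neighbours, 16 were lost in no alternative, 11 in 3 or more, and none changed direction. Leaving out single lines gave 9 to 18 called related genes in YS against BM (15 with all lines) and 4 to 9 in YS against FL (7 with all lines). With a filter of 5 TPM, 6 were called in FL against BM and 4 in YS against FL. With only the 6 lines compared in the fit, 2 were called in YS against FL. With the line number as a replicate block, 16, 10 and 6 were called in YS against BM, FL against BM and YS against FL, and deviations of lines of the same number correlated at -0.118 to 0.088, so the numbers were not taken as pairs. In the members, 4 tested genes were called in YS against BM, and 2 without a filter on low values (of 6), with the 5 TPM filter (of 2) or with only the 6 lines compared (of 4). The members were chosen on YS values, and the share of all genes called in the alternative fits is not given. Nothing is therefore read from these counts or from those of related genes in the alternative fits above. TPM keeps no depth, so values near 0 cannot be given an interval.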
